A study of Homo sapiens with 12 samples.

Results

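Retinoic acid is made, carried and destroyed by a small set of proteins, and the 9 genes described here were listed by name for those roles: STRA6, RDH10, DHRS3, ALDH1A1, ALDH1A3, CRABP1, CRABP2, CYP26A1 and CYP26B1. All 9 were found among the 58347 genes of the count files, and 7 of them passed the filter on low counts that left 16740 genes for testing. CRABP1 and ALDH1A1 did not pass. The samples were 12 RNA libraries of A375, a human melanoma cell line with an activating BRAF mutation, in 4 groups of 3: DMSO vehicle, tretinoin, vemurafenib, and vemurafenib with tretinoin (the combination). Exposure lasted 8 h, and the labels list 5 µM for every group, vehicle included, without saying whether each drug of the combination was at that concentration. The libraries come from a single cell line, and nothing in the labels ties replicates to separate cultures beyond calling them triplicate, so p-values measure the spread between these samples, which may be technical.

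Tretinoin is all-trans retinoic acid itself, the end product of the pathway, and vemurafenib is an inhibitor of mutant BRAF kinase. In textbook terms, retinol bound to its plasma carrier enters cells through the membrane receptor STRA6, RDH10 oxidises retinol to retinal, and DHRS3 reduces retinal back to retinol. ALDH1A1 and ALDH1A3 oxidise retinal to retinoic acid, CRABP1 and CRABP2 bind retinoic acid in the cytosol, and the cytochromes CYP26A1 and CYP26B1 break it down. Retinoic acid acts through RAR and RXR receptor pairs, which bind paired hexamers in DNA, and several of its own metabolic genes are known as targets.

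The total count per library was between 13510235 and 21534377. Of 8 melanocyte markers, SOX10 was listed at 0 in all 12 libraries and TYR was at 0 outside the combination, while MITF was present at 17.6 ± 1.88 CPM (counts scaled to library size after TMM normalisation, SD, n = 3) in DMSO. The summed level of the melanocyte list ranged from 24.3 to 31.1 CPM in DMSO and tretinoin and from 39.8 to 46.0 CPM in the vemurafenib-treated groups. The 4 keratinocyte markers summed to 9.31 to 16.4 CPM without vemurafenib and 26.7 to 35.5 CPM with it, with KRT1 at 0 throughout. The 4 fibroblast markers summed to 4.07 to 5.75 CPM without vemurafenib and 9.52 to 14.1 CPM with it. The 4 leukocyte markers summed to 1.03 to 2.9 CPM in DMSO, 2.52 to 4.77 in tretinoin, 3.17 to 3.91 in vemurafenib and 3.72 to 5.28 in the combination, with PTPRC, which encodes CD45, at 1.11, 3.03, 2.8 and 3.74 CPM on average. The 3 endothelial markers summed to 5.28 to 6.55 CPM in DMSO, 12.7 to 17.2 in tretinoin, 2.4 to 3.17 in vemurafenib and 5.34 to 6.2 in the combination. In the same order CDH5 averaged 4.56, 13.4, 0.137 and 3.15 CPM, and PECAM1 0.96, 1.68, 0.521 and 0.598 CPM. VWF went the other way, at 0.482, 0.359, 2.08 and 1.96 CPM. The part of these marker levels in the results below was not tested.

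Because receptor pairs bind direct repeats, the sequence before the members' transcription starts was read first. RefSeq windows from 250 bases before to 50 bases after a start (GRCh38.p14) were searched for the consensus hexamer AGGTCA and its variants (AGTTCA as well as GGGTCA, and also the variant GGTTCA) on both strands. A pair of these in the same direction with 5 bases between them, the spacing classically bound by RAR and RXR, was found in 31 of 35116 windows (0.0883%). Among the members and 45 further retinoid pathway genes it was found only for CYP26A1 and for RARB, the gene of retinoic acid receptor beta. Pairs with 2 bases or 1 base between them were also searched for, and were found for none of these genes. The CYP26A1 pair lies at chr10:93073797-93073825 on the plus strand, where its hexamers end 84 and 73 bases before one start and lie inside the annotated 5′ UTR exon of a longer CYP26A1 transcript. The RARB stretch, chr3:25428155-25428251 on the plus strand, lies in an intron of longer RARB transcripts and holds 3 hexamers, which end 77, 47 and 36 bases before the start. These are shown because they carry the repeat, with the hexamers in capitals (read on the reverse strand for CYP26A1).
CYP26A1: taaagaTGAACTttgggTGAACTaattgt
RARB: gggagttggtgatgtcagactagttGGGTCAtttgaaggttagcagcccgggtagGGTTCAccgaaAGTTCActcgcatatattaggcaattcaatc

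Without vemurafenib, tretinoin changed DHRS3 and STRA6 most among the members, and both had hexamers but no such repeat in these windows. There was at most 1 hexamer in a DHRS3 window and up to 3 in a STRA6 window. With vemurafenib CRABP2 changed slightly more than STRA6 (log2 difference 1.49 against 1.45), and its window held 1 hexamer and no such repeat. The DHRS3 stretch is at chr1:12616931-12616986 on the minus strand, within an intron of longer DHRS3 transcripts, and its hexamer ends 166 bases before the start. The STRA6 stretch is at chr15:74212409-74212490 on the minus strand, and lies upstream of the gene. It holds 2 of the 3 hexamers of its window, and 9 of its 82 bases lie in an exon of CCDC33 on the opposite strand.
DHRS3: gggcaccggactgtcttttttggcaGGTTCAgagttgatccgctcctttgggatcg
STRA6: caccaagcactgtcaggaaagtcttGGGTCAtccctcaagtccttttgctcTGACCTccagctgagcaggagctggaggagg
At least 1 hexamer was found in 6 of the 15 windows of the 8 members with a window used here, against 38.6% of all windows, so the members' share was near the background. A match describes letters in a window and not a bound site.

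Tretinoin without vemurafenib raised the retinal reductase DHRS3 most, followed by the retinol receptor STRA6, the carrier CRABP2 and the hydroxylase CYP26B1, and lowered the retinal dehydrogenase ALDH1A3. Of the 7 members tested, 4 were called higher and 1 lower (edgeR quasi-likelihood test, Benjamini-Hochberg adjusted p under 0.05), against 3.48% of all genes tested called higher and 2.2% lower (5.68% in either direction). The median log2 difference was 0.58 over the members tested and 0.01 over all genes tested. Among all called genes, 61.3% were higher, a share that became 81.3% when libraries were scaled by total counts alone. With vemurafenib in both groups, tretinoin raised the same 4 members and lowered none, against 2.27% of genes called higher and 2.2% lower (4.47% in either direction). The median log2 difference was then 1.20 over the members tested and 0.00 over all genes tested. That member median is the value of CYP26A1, which had few counts and was not called (adjusted p = 0.23). The tests with and without vemurafenib compare different samples, but both take their filter, scaling and estimate of spread from a single fit to all 12 samples.

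**Figure D1:**
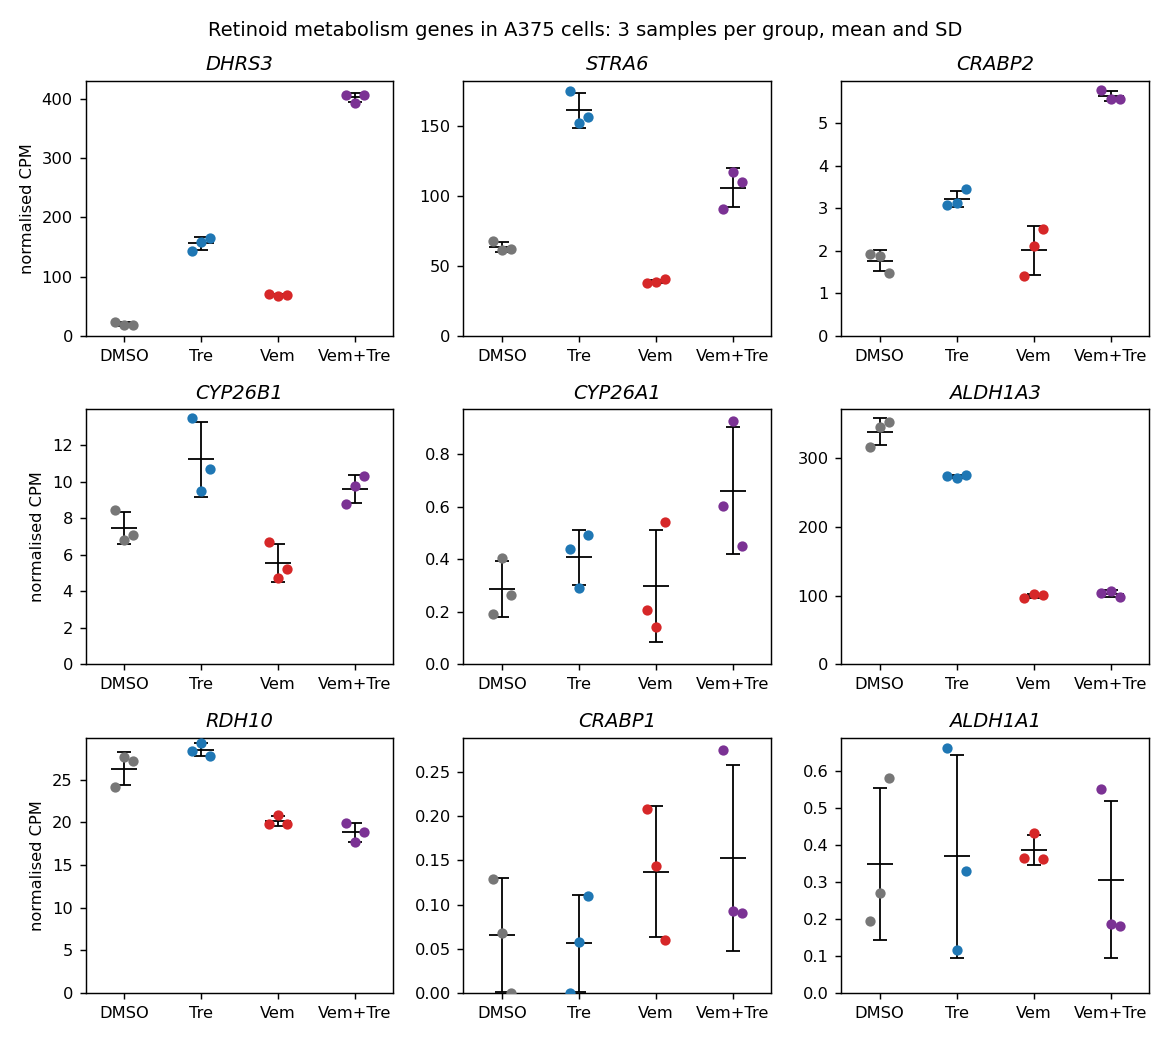
Normalised CPM (vertical axes, each from 0) of the 9 retinoid metabolism genes in DMSO, tretinoin (Tre), vemurafenib (Vem) and the combination (Vem+Tre). Points are samples, bars are the mean and SD of 3. DHRS3 stood at 393 CPM or more in every combination library, while CYP26A1, CRABP1 and ALDH1A1 stayed under 1 CPM.

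DHRS3 (ENSG00000162496.8, chr1:12567910-12617731 on the minus strand) returns retinal to retinol and so draws substrate away from retinoic acid synthesis. Its levels were 24.4, 19.3 and 18.6 CPM in DMSO, 143, 159 and 166 CPM in tretinoin, 71.5, 67.8 and 68.3 CPM in vemurafenib, and 407, 393 and 407 CPM in the combination. No groups overlapped, and each drug alone and both together gave a higher level than vehicle. In bulk RNA, a different number of cells making a transcript and a different amount per cell cannot be told apart. Tretinoin raised DHRS3 by 2.91 ± 0.09 (log2, SE; adjusted p = 1.9e-12) without vemurafenib and by 2.54 ± 0.09 (adjusted p = 5.4e-12) with it. As a ratio of mean CPM, DHRS3 was 7.5-fold its DMSO level in tretinoin, 3.33-fold in vemurafenib and 19.4-fold in the combination.

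STRA6 (ENSG00000137868.18, chr15:74179466-74212267 on the minus strand), the cell-surface receptor for retinol carried by plasma retinol-binding protein, is named for its stimulation by retinoic acid. It was at 67.9, 61.2 and 62.2 CPM in DMSO, 175, 152 and 156 CPM in tretinoin, 37.9, 38.2 and 40.3 CPM in vemurafenib, and 90.6, 117 and 110 CPM in the combination. The 4 groups did not overlap, and the order was vemurafenib, DMSO, combination, tretinoin. The tretinoin difference was 1.34 ± 0.09 (log2, SE; adjusted p = 5.8e-08) without vemurafenib and 1.45 ± 0.09 (adjusted p = 9.7e-09) with it. A stretch of 7.0% of its exon bases is shared with CCDC33 on the other strand, and since counting ignored strand, fragments over both genes were assigned to neither.

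CRABP2 (ENSG00000143320.8, chr1:156699606-156705816 on the minus strand), which delivers retinoic acid to nuclear receptors, was low: 1.93, 1.89 and 1.48 CPM in DMSO, 3.08, 3.14 and 3.45 in tretinoin, 1.4, 2.12 and 2.52 in vemurafenib, and 5.78, 5.57 and 5.57 in the combination. DMSO and vemurafenib overlapped, and tretinoin and the combination each stood above both and apart from each other. Tretinoin raised CRABP2 by 0.88 ± 0.21 (log2, SE; adjusted p = 0.021) without vemurafenib and by 1.49 ± 0.18 (adjusted p = 5e-05) with it. The first call was lost without DMSO replicate 2 (0.94, adjusted p = 0.059) or DMSO replicate 3 (0.76, adjusted p = 0.093), and when only the 6 samples compared were fitted (0.89, adjusted p = 0.069).

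CRABP1 (ENSG00000166426.7, chr15:78340324-78348230), the other cytosolic carrier, had counts of 2, 1 and 0 in DMSO, 0, 1 and 2 in tretinoin, 4, 3 and 1 in vemurafenib, and 5, 2 and 2 in the combination. No difference in CRABP1 was detectable with so few counts, 9 at most summed over any group. AC011270.2, on the other strand, covers 47.2% of CRABP1 exon bases and averaged 0.2 counts. Fragments over both genes were assigned to neither, so CRABP1 counts may be too low.

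Of the hydroxylases that clear retinoic acid, CYP26B1 (ENSG00000003137.8, chr2:72129238-72148038 on the minus strand) was the one expressed above 1 CPM. It was at 8.44, 6.82 and 7.07 CPM in DMSO, 13.5, 9.47 and 10.7 CPM in tretinoin, 6.7, 4.71 and 5.23 CPM in vemurafenib, and 8.8, 9.76 and 10.3 CPM in the combination. The tretinoin-treated libraries stood above their matching controls in both settings, with tretinoin and the combination overlapping each other. The differences were 0.58 ± 0.15 (log2, SE; adjusted p = 0.031) without vemurafenib and 0.80 ± 0.15 (adjusted p = 0.0036) with it. The call without vemurafenib was lost without DMSO replicate 2 (0.53, adjusted p = 0.14), DMSO replicate 3 (0.55, adjusted p = 0.095) or tretinoin replicate 1 (0.44, adjusted p = 0.085), and with only the 6 samples compared (0.59, adjusted p = 0.092).

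CYP26A1 (ENSG00000095596.11, chr10:93073475-93077890 on the plus strand), known as one of the most inducible retinoic acid targets in many tissues and the member with the paired hexamers shown above, was barely detected. It had counts of 3, 6 and 5 in DMSO, 6, 5 and 9 in tretinoin, 4, 3 and 9 in vemurafenib, and 11, 20 and 10 in the combination. The combination libraries had the highest counts, and on the CPM scale they stood above DMSO (0.453 to 0.929 against 0.193 to 0.405 CPM) but overlapped with tretinoin and with vemurafenib. The tretinoin difference was 0.51 (log2, 95% interval -0.67 to 1.69, adjusted p = 0.63) without vemurafenib and 1.20 (0.19 to 2.21, unadjusted p = 0.023, adjusted p = 0.23) with it, and neither passed the threshold. CYP26A1 passed the filter on low counts mainly through the combination libraries, where it was highest, so the second value is no independent evidence of a rise. With no filter on low counts that value was 1.21 (adjusted p = 0.45). In GENCODE 29, 25.2% of CYP26A1 exon bases are also exons of AL358613.3, which has no row in the count files.

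ALDH1A3 (ENSG00000184254.16, chr15:100877714-100916626 on the plus strand), which makes retinoic acid from retinal, was the most abundant member in DMSO. Its levels were 316, 345 and 353 CPM in DMSO, 274, 271 and 275 CPM in tretinoin, 95.9, 102 and 101 CPM in vemurafenib, and 104, 107 and 97.4 CPM in the combination. All tretinoin libraries lay below all DMSO libraries, and vemurafenib and the combination overlapped far below both. Tretinoin lowered ALDH1A3 by a log2 difference of -0.31 ± 0.07 (SE; adjusted p = 0.0092) without vemurafenib, and with vemurafenib the difference was 0.04 ± 0.07 (adjusted p = 0.88). The call without vemurafenib was lost with only the 6 samples compared (-0.30, adjusted p = 0.086). An antisense gene, AC015712.2, covers 27.5% of ALDH1A3 exon bases and averaged 69.0 counts.

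ALDH1A1 (ENSG00000165092.12, chr9:72900662-73080442 on the minus strand), the related dehydrogenase, had between 2 and 11 counts in each library, with sums of 18, 17, 22 and 18 in DMSO, tretinoin, vemurafenib and the combination. With no filter on low counts, no adjusted p for ALDH1A1 or CRABP1 was under 0.05 in any of the 5 comparisons. RDH10 (ENSG00000121039.9), which starts the pathway by oxidising retinol, was at 24.1, 27.6 and 27.2 CPM in DMSO, 28.4, 29.3 and 27.8 CPM in tretinoin, 19.8, 20.8 and 19.8 CPM in vemurafenib, and 19.9, 17.7 and 18.9 CPM in the combination. Tretinoin libraries stood above DMSO by a narrow margin, and vemurafenib and the combination overlapped. The tretinoin difference in RDH10 was 0.12 ± 0.08 (log2, SE; adjusted p = 0.42) without vemurafenib and -0.10 ± 0.08 (adjusted p = 0.68) with it.

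**Figure D2:**
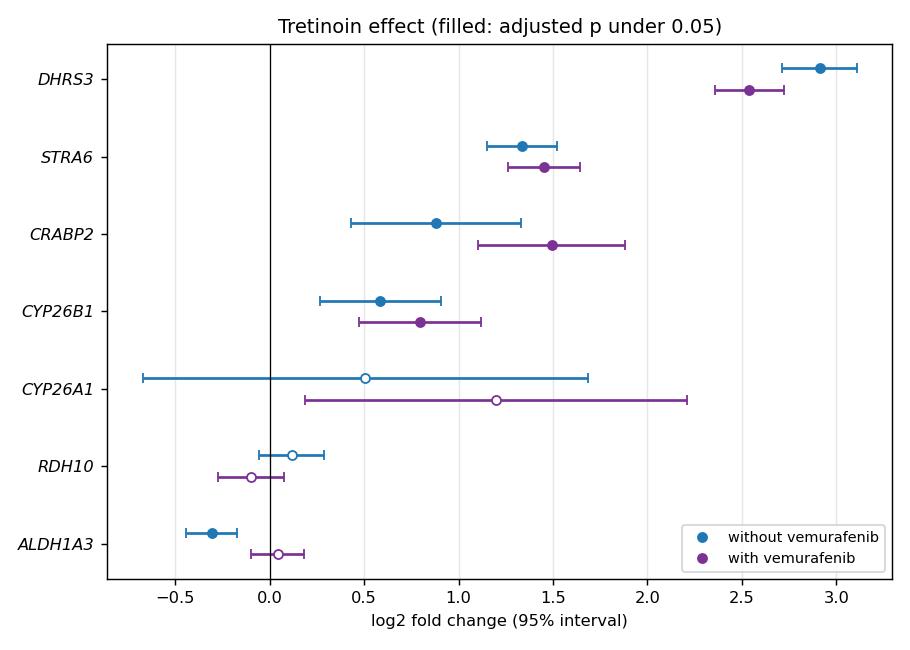
Log2 difference made by tretinoin (horizontal axis, with 95% intervals) for the 7 members tested, without vemurafenib (tretinoin against DMSO) and with it (combination against vemurafenib). Filled points passed an adjusted p of 0.05. The 4 members at the top, DHRS3, STRA6, CRABP2 and CYP26B1, are filled in both settings, and ALDH1A3 is filled without vemurafenib only.

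Whether the tretinoin effect differed with and without vemurafenib was tested directly, as the difference between both log2 differences. By edgeR, 0 of the 7 members were called, against 0.382% of genes tested called with a larger and 0.424% with a smaller value under vemurafenib (0.806% in either direction, 135 genes). At an unadjusted p under 0.05 there were 3: CRABP2 (0.61, 95% interval 0.01 to 1.22, adjusted p = 0.32), DHRS3 (-0.37, -0.63 to -0.11, adjusted p = 0.18) and ALDH1A3 (0.35, 0.16 to 0.54, adjusted p = 0.095). DESeq2 called ALDH1A3 alone (0.36, adjusted p = 0.011). Among all genes called by edgeR, 47.4% had the larger value under vemurafenib, and 21.4% with libraries scaled by total counts alone, where the median over all genes moved from -0.01 to -0.11.

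With all 12 libraries edgeR called neither DHRS3 nor ALDH1A3 in this test, but some fits with 1 library left out did. DHRS3 passed without DMSO replicate 1 (-0.51, adjusted p = 0.045), the DMSO library with its highest level, and without tretinoin replicate 1 (-0.43, adjusted p = 0.034), the tretinoin library with its lowest. ALDH1A3 passed without tretinoin replicate 1 (0.35, adjusted p = 0.035), with a difference like that from all 12 libraries (0.35). Over the fits with 1 library left out its difference ranged from 0.31 to 0.39, and DESeq2 called it with all 12 libraries. For the others the intervals show how large a difference these data allow: -0.15 to 0.38 for STRA6, -0.25 to 0.67 for CYP26B1, -0.46 to 0.03 for RDH10 and -0.89 to 2.28 for CYP26A1 (log2). The interval was narrowest for ALDH1A3 and widest for CYP26A1, the gene with the fewest counts among those tested.

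Vemurafenib without tretinoin changed 5 of the 7 members: DHRS3 was higher, and ALDH1A3, STRA6, CYP26B1 and RDH10 were lower. That is 1 called higher against 26.4% of all genes tested, and 4 called lower against 26.3%. In either direction 52.6% of all genes tested were called, so a call alone sets a member little apart here. Of all called genes 50.1% were higher, or 71.4% by total counts alone, where the median log2 difference of all genes moved from 0.02 to 0.21. The median over the members was -0.38. This comparison and tretinoin against DMSO use the same DMSO libraries.

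Vemurafenib raised DHRS3 by 1.74 ± 0.09 (log2, SE; adjusted p = 7.1e-11) and lowered ALDH1A3 by a log2 difference of -1.76 ± 0.07 (adjusted p = 6.9e-13), changes of like size in opposite directions for the reductase and the dehydrogenase that compete for retinal. STRA6 fell by 0.72 (log2; adjusted p = 3.9e-06). RDH10 fell by 0.38 (adjusted p = 0.00085) and CYP26B1 fell by 0.42 (adjusted p = 0.036). The RDH10 and CYP26B1 calls were lost with total counts alone (-0.19, adjusted p = 0.069, and -0.23, adjusted p = 0.27). The CYP26B1 call was also lost without DMSO replicate 1 (-0.33, adjusted p = 0.14), vemurafenib replicate 2 (-0.32, adjusted p = 0.15) or vemurafenib replicate 3 (-0.39, adjusted p = 0.09), and among genes with a mean of at least 50 counts (-0.36, adjusted p = 0.068). CRABP2 was 0.19 ± 0.22 (adjusted p = 0.5), and CYP26A1 was 0.00 with a 95% interval of -1.49 to 1.49.

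With tretinoin in both groups, vemurafenib raised DHRS3 (1.37 ± 0.08, adjusted p = 3.8e-10) and CRABP2 (0.80 ± 0.18, adjusted p = 0.0011) and lowered ALDH1A3, STRA6 and RDH10. The last 3 had log2 differences of -1.41 ± 0.07 (adjusted p = 1.4e-11), -0.60 ± 0.09 (adjusted p = 1.6e-05) and -0.60 ± 0.08 (adjusted p = 1e-05). Thus 2 members were called higher and 3 lower, against 24.1% and 25% of all genes (49.1% in either direction), with 49.0% of called genes higher, or 60.7% by total counts alone, where the median over all genes moved from 0.02 to 0.11. The median over the members was -0.21. CYP26B1 had a log2 difference of -0.21 ± 0.14 (adjusted p = 0.24). Whether vemurafenib acted differently with tretinoin present is the same test as above, which called no member by edgeR.

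**Figure D3:**
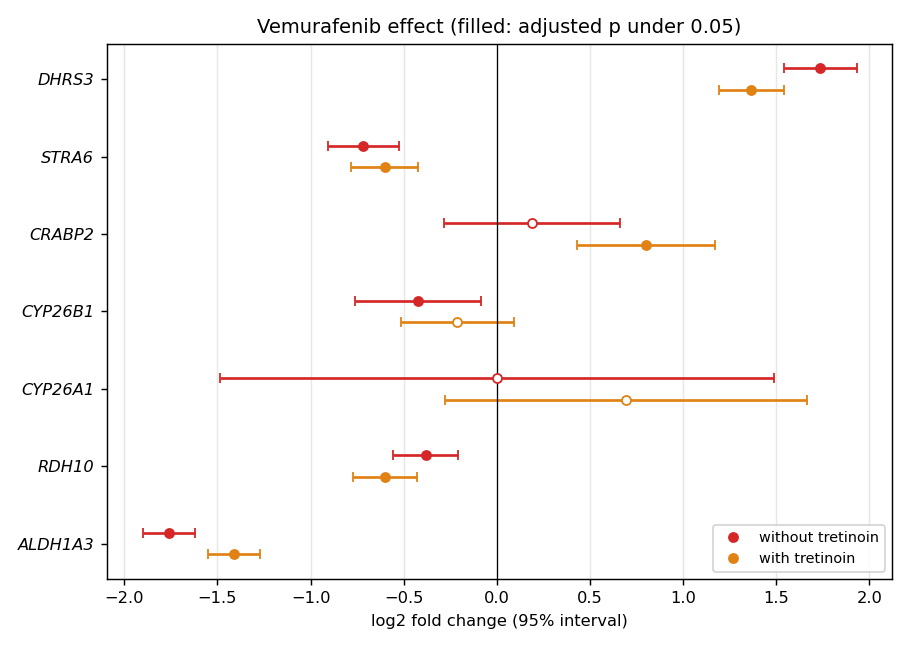
Log2 difference made by vemurafenib (horizontal axis, with 95% intervals) for the 7 members tested, without tretinoin (vemurafenib against DMSO) and with it (combination against tretinoin). Filled points passed an adjusted p of 0.05. DHRS3 lies right of 0 and ALDH1A3, STRA6 and RDH10 left of 0 in both settings.

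Compared per exon length, the members changed rank between groups. In DMSO the order by mean CPM per kilobase of exon was ALDH1A3 (58.5), STRA6 (8.29), DHRS3 (6.84), RDH10 (4.94), CRABP2 (1.61) and CYP26B1 (1.48), with the sample ranges of STRA6 and DHRS3, and of CRABP2 and CYP26B1, overlapping. In tretinoin DHRS3 (51.3) and ALDH1A3 (47.3) led with overlapping ranges, ahead of STRA6 (21.0), RDH10 (5.36), CRABP2 (2.93) and CYP26B1 (2.24). In vemurafenib the order was DHRS3 (22.8), ALDH1A3 (17.3), STRA6 (5.04), RDH10 (3.79), then CRABP2 (1.83) and CYP26B1 (1.11), which overlapped.

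In the combination DHRS3 led at 133 CPM per kilobase, ahead of ALDH1A3 at 17.8 and STRA6 at 13.8. The combination was the group in which CRABP2 (5.13) stood above RDH10 (3.54), followed by CYP26B1 (1.92). CYP26A1, CRABP1 and ALDH1A1 were at or under 0.223 CPM per kilobase on average in every group, with ranges that overlapped each other. The length used is the union of annotated exons, 7690 bases for STRA6 and 3036 for DHRS3, so these ranks depend on which isoforms the cells make. It includes exon bases shared with a gene on the other strand, 47.2% for CRABP1, 27.5% for ALDH1A3, 7.0% for STRA6 and 5.2% for RDH10. Fragments over both genes were assigned to neither, so values per length may be too low for CRABP1, ALDH1A3, STRA6 and RDH10. Whether DHRS3 or ALDH1A3 ranked first in tretinoin and in vemurafenib may depend on this, which was not tested.

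Within a library, the ratio of DHRS3 to ALDH1A3 needs no scaling between libraries, and it was taken as a description after the values of both had been seen. Per exon length it was 0.147, 0.107 and 0.0999 in DMSO, 0.992, 1.12 and 1.15 in tretinoin, 1.42, 1.26 and 1.28 in vemurafenib, and 7.42, 7.01 and 7.95 in the combination. The 4 groups did not overlap. The dehydrogenase transcript was the more abundant of the pair in all DMSO libraries, the ratio lay between 0.992 and 1.42 in the single-drug groups, and the reductase transcript led in the combination, at a mean ratio of 7.46 ± 0.471 (SD, n = 3) against 0.118 ± 0.0254 in DMSO. ALDH1A3 counts leave out fragments over the 27.5% of its exon bases shared with an antisense gene. All ratios may therefore be too high, and they do not show which transcript led in the single-drug groups.

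**Figure D4:**
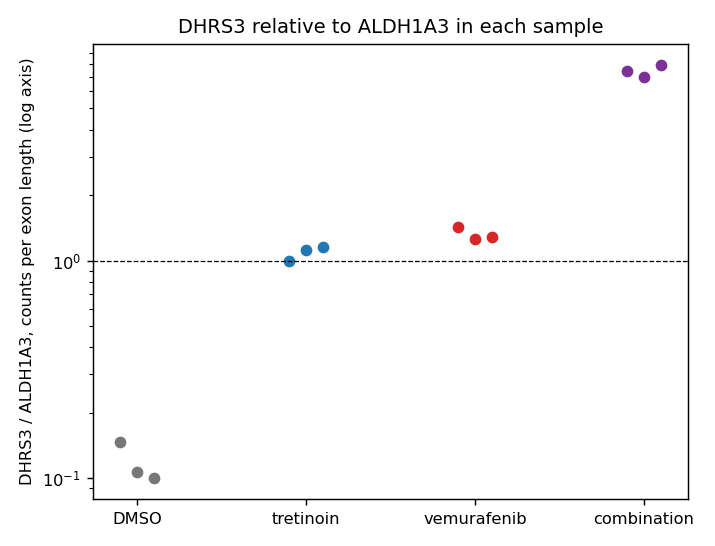
Ratio of DHRS3 to ALDH1A3 counts per exon length in each of the 12 libraries (vertical log axis), by group. The dashed line marks equal counts per exon length. DMSO lies between 0.0999 and 0.147 and the combination between 7.01 and 7.95.

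The other genes of the retinoid pathway were taken as a list. Of 45 further genes for retinol and retinal interconversion, binding, storage, breakdown and reception, 19 passed the filter. For tretinoin against DMSO edgeR called 0 of the 19, where 5.68% of all genes tested were called in either direction. With 19 genes, a count of 0 is near that share and does not show that the list lacked a response. At an unadjusted p under 0.05 there were 4, and DESeq2 called 1, RARB. In place of 0, edgeR called 1 higher without DMSO replicate 1 or with total counts alone, 2 higher without tretinoin replicate 1, and 2 higher and 1 lower with no filter on low counts. With vemurafenib in both groups 2 were called higher and 0 lower, both receptors, against 2.27% and 2.2% of all genes tested. The test of the difference in tretinoin effect called 0, against 0.806% of all genes tested in either direction, so 0 of 19 is again near the share. At an unadjusted p under 0.05 there were 4, and DESeq2 called 0. Vemurafenib against DMSO called 8 of the 19 higher and 6 lower, against 26.4% and 26.3% of all genes tested, and the combination against tretinoin called 9 higher and 7 lower, against 24.1% and 25%. Among genes with a mean of at least 50 counts, which tests fewer genes, the numbers called lower were 3 and 4. Apart from the receptors, 13 genes passed and vemurafenib called 4 higher and 4 lower, where 52.6% of all genes tested were called in either direction.

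RARB, the receptor gene with the repeat shown above and a known retinoic acid target, was at 1.35 ± 0.0707 CPM in DMSO, 2.47 ± 0.851 in tretinoin, 9.47 ± 1.43 in vemurafenib and 22.1 ± 3.93 in the combination. Its tretinoin difference was 0.82 ± 0.28 (log2, SE; adjusted p = 0.1) without vemurafenib and 1.22 ± 0.15 (adjusted p = 5.3e-05) with it, and the test between the 2 gave 0.40 (95% interval -0.30 to 1.10, adjusted p = 0.58). RARA, the receptor alpha gene, was at 45.7, 46.2, 25.7 and 32.1 CPM on average in DMSO, tretinoin, vemurafenib and the combination. Its tretinoin difference was 0.01 (adjusted p = 0.94) without vemurafenib and 0.32 ± 0.09 (adjusted p = 0.042) with it, a call lost with the replicate number as a block (0.32, adjusted p = 0.091), with total counts alone (0.29, adjusted p = 0.093), and without any 1 of 6 libraries, with adjusted p values from 0.057 to 0.24. Those libraries were tretinoin replicate 2, the 3 vemurafenib replicates, and combination replicates 2 and 3.

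The genes whose pattern over the 12 libraries was most like a member's were taken for the 3 members with the smallest p for tretinoin against DMSO. Pearson's r on log2(CPM + 0.5) is a description, since the 12 points share 4 treatments. For DHRS3 they were EPB41L1 (0.9804), PDK4 (0.9755) and TF (0.9740), and TF, the transferrin gene, rose from 2.08 CPM in DMSO to 19.2 in the combination on average. For STRA6 they were BHLHE40 (0.9893), VSIR (0.9842) and LTBP3 (0.9679), each highest in tretinoin and lowest in vemurafenib on average. For ALDH1A3 they were FJX1 (0.9977), SMN1 (0.9977) and CCND1 (0.9969). CCND1, the cyclin D1 gene, averaged 804, 595, 38.3 and 42.8 CPM in DMSO, tretinoin, vemurafenib and the combination, so it was lower in tretinoin than in DMSO and lower again in both vemurafenib groups, as ALDH1A3 was. SMN1 has a near-identical copy, SMN2, so its counts are uncertain.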

How the data were processed

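Poly(A) RNA of 12 A375 samples was sequenced with a strand-marking kit. The authors aligned paired-end reads with STAR 2.5.3a to GRCh38.p10 and deposited raw counts of fragments per GENCODE 27 gene, taken in union mode with strand ignored. Fragments over more than 1 gene were therefore not counted, and total counts of 13510235 to 21534377 limit precision for genes with few counts. Samples were grouped by the labels. Of 58347 gene identifiers, 58081 were found in GENCODE 29, the source of symbols, exon lengths and positions.

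Genes were filtered by group with filterByExpr, normalised by TMM and tested with the quasi-likelihood test of edgeR 4.0.16 (R 4.3.3), fitted to all 12 samples with a term per group (common dispersion 0.00653). P-values were Benjamini-Hochberg adjusted over the 16740 genes tested in each of 5 comparisons, with a threshold of 0.05. A standard error is the size of the log2 difference over the square root of F, and intervals are 95%. The members and gene lists were chosen with earlier results of these data known. The genes named were all members, wider pathway genes called in a tretinoin comparison or for the interaction, and the 3 genes most correlated with each of 3 members. Alternatives were DESeq2 1.42.0 (with and without shrinkage), other size factors, other filters, a replicate block, only the groups compared, each library left out, and, added after seeing the data, total counts alone and all of these for the wider list. Exons of members were compared with other genes by blastn (at least 150 bases, at least 98% identity), which found only overlapping neighbours.

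Same-numbered replicates did not deviate together: of 18 pairs 0 had a correlation over 0.1 (range -0.143 to 0.0872), so the numbers were not taken as pairs. Replicates differed beyond sampling noise, with chi-square per degree of freedom of at least 2.588, so none was a duplicate.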

Additional observations from a re-analysis of the deposited data

How the results depend on the processing

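Of 685 member differences recomputed, 655 kept their direction and side of the threshold, 14 lost and 5 gained significance, and 11 changed sign. All 11 were CYP26A1 for vemurafenib against DMSO (0.00): -0.001 with shrinkage in DESeq2, -0.014 without a filter, and -0.69 to 0.35 with a library left out. For tretinoin against DMSO, fitting only those groups called 2 members higher and 0 lower, and 234 genes higher and 71 lower. The genes called lower numbered 635 by DESeq2 (628 with shrinkage), 804 without a filter and 174 by total counts. Leaving out 1 library gave 2 to 4 members higher (2 without DMSO replicate 2 or 3), 273 to 711 genes higher and 106 to 656 lower. For the combination against vemurafenib, fitting only those groups called 584 genes higher and 685 lower, and leaving out 1 library gave 254 to 538 and 203 to 634. For the difference in tretinoin effect, DESeq2 called 1 member higher, and 126 genes higher and 150 lower (132 and 145 with shrinkage), against 389 and 221 without a filter and 36 and 132 by total counts. Leaving out 1 library gave 0 to 1 members in each direction, 31 to 121 genes higher and 27 to 144 lower. For vemurafenib against DMSO, total counts called 2 members and 2628 genes lower, and leaving out 1 library 3 to 4 members lower. RARA for tretinoin against DMSO (0.01) was -0.03 to 0.06 with a library left out, and below 0 without DMSO replicate 1 or tretinoin replicate 1. The causes were not tested.

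The replicate number as a block changed no call of a member. It called 219 genes lower for tretinoin against DMSO, and 39 higher and 36 lower for the difference in tretinoin effect. The numbers were not taken to pair samples, and 0 of 12 samples correlated best with its own number. A filter on a mean of at least 50 counts left CYP26A1 out.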
